A study of Mus musculus with 28 samples.

Results

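Young XY mouse epidermis lacking Kdm6a was compared with control epidermis by poly(A) RNA-seq. Kdm6a, also called Utx, is an X-linked gene whose product removes methyl groups from lysine 27 of histone H3. The comparison used 6 of the 28 samples of the series, chosen as the libraries of the young XY table. The 3 conditional knockout (cKO) libraries are labelled Cre+ with a floxed Utx allele opposite the Y chromosome (Utx fl/Y). The 3 control libraries are all Cre-; controls 1 and 2 are Utx fl/Y and control 3 is Utx +/Y, so it carries no floxed allele. Cre was driven by Krt14, a keratin gene of the basal layer, so deletion is directed to keratinocytes and other Krt14-expressing cells, and cells of other types in the tissue keep the gene. Because no control carries Cre, an effect of Cre and an effect of losing Kdm6a cannot be told apart. The age comes from the titles of the deposited tables, and the labels do not say whether libraries come from separate animals.

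Kdm6a acts within the MLL3 and MLL4 (Kmt2c and Kmt2d) complexes, which mark enhancers with methylated lysine 4 of histone H3. Its Y-linked relative Uty encodes a similar protein with very weak demethylase activity, and the related autosomal gene Kdm6b encodes an active demethylase. XY cells have a single Kdm6a copy beside Uty, so a cKO keratinocyte keeps Uty alone. In epidermis, basal keratinocytes divide, leave the basement membrane and mature through suprabasal layers into cornified cells, whose envelope is cross-linked from proteins such as loricrin and the late cornified envelope (Lce) proteins.

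The deposited values were normalized by the authors and sum to 21.2 to 23.4 M per library; the steps between low values put the depth at about 19.6 to 25.5 M reads. They were compared as log2(value + 1) with limma, and a difference is cKO minus control on that scale with its standard error (SE). All 6 libraries held high levels of the epidermal keratins: Krt5 was 240995 to 276038 in cKO and 224493 to 244893 in control, and Krt10 was 322942 to 386137 in cKO and 372548 to 426054 in control. Control 3 stood apart in markers of other states. The 24 skeletal muscle markers summed to 16565 there, against 550 to 1984 in the cKO libraries and 1488 to 2771 in the other controls, and all 20 tested muscle markers were highest in control 3. Its Krt16 and Krt6b, keratins of stressed or wounded epidermis, were 19714 and 5304. In the cKO libraries Krt16 was 924 to 2785 and Krt6b 31.5 to 220, and in controls 1 and 2 Krt16 was 1034 and 2049 and Krt6b 28.8 and 176. Control 1 held the highest summed erythrocyte, fibroblast and endothelial markers. These sums were 3015, 23300 and 763 there, against at most 1523, 19581 and 564 in any other library. An alternative fit that weighted the libraries gave control 1 the lowest weight (0.363, against 0.987 to 1.48 in the others). Results that rest on control 3 are given without it as well.

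The steroid-metabolizing genes of the Akr1c cluster are shown by sequence because 3 of its genes were higher in every cKO library than in every control. The same held for 3.46% of all tested genes. The tested genes of the cluster lie on chromosome 13 in the order Akr1c14, Akr1c18, Akr1c13, Akr1c19. The 250 bases before the annotated starts (RefSeq, GRCm38.p6) follow for Akr1c18 (chr13:4150647-4150896, minus strand), Akr1c13 (chr13:4190937-4191186, plus strand) and Akr1c19 (chr13:4233490-4233739, plus strand), read 5′ to 3′ in the direction of the gene. The GENCODE annotation places the starts differently. There Akr1c19 starts at 4228700, so its window lies inside that gene, and Akr1c13 (4191150) and Akr1c18 (4150654) start within their windows. Capitals mark matches on either strand to TTCNNNGAA, the form bound by STAT proteins, and to ATTAGNCAG, a repeated word chosen after these sequences were read.
Akr1c18: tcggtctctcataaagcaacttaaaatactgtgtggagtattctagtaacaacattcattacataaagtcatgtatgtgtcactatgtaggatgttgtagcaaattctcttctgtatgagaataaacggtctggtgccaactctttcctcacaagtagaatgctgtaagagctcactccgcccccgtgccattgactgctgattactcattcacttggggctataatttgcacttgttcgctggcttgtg
Akr1c13: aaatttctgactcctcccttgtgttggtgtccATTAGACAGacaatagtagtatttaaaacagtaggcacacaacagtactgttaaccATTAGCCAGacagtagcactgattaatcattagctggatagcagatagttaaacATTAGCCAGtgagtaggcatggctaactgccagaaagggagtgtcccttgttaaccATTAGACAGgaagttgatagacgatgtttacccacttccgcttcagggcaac
Akr1c19: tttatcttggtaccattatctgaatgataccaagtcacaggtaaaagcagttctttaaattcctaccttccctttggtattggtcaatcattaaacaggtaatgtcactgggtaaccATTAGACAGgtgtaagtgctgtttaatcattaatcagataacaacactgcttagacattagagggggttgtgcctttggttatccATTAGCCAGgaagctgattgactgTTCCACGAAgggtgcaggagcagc
The word ATTAGNCAG occurs 4 times before Akr1c13, 2 times before Akr1c19 and 0 times before Akr1c18, and 0.563% of 32851 RefSeq promoter windows of this length hold it. The word was chosen from these sequences, so its share among the windows cannot test for enrichment here. TTCNNNGAA occurs 1 time, before Akr1c19, and 7.02% of the windows hold it. TATAAA, the TATA box, and TGACCT, a nuclear receptor motif, were also searched on both strands; 12.4% and 14% of the windows hold them, and none of the 3 shown does.

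Kdm6a itself was lower in every cKO library. It was 460, 473 and 573 in cKO 1 to 3, and 816, 1187 and 895 in control 1 to 3. The groups did not overlap, with means of 502 ± 61.7 in cKO and 966 ± 196 in control (SD, n = 3 each). The log2 difference was -0.93 (SE 0.18). It did not pass limma's adjustment over all genes (adjusted p = 0.902), and an exact two-sided permutation test gave p = 0.1, the smallest that 3 against 3 allows. In the authors' deposited table Kdm6a was called (log2 fold change -0.95, adjusted p = 0.0106). The value sums reads over the gene, located at 18162575 to 18279936 of chromosome X (GRCm38, plus strand). In bulk tissue, fewer cells with the transcript and less transcript per cell cannot be told apart.

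The relatives of Kdm6a showed no comparable difference. Uty was 414, 565 and 453 in cKO and 358, 586 and 508 in control, and the groups overlapped. Its log2 difference was -0.002 (SE 0.22, exact two-sided permutation p = 1). Kdm6b was 1816, 4058 and 2344 in cKO and 2125, 3024 and 1979 in control, a log2 difference of 0.15 (SE 0.29), and was highest in cKO 2; without that library it was -0.18. Kmt2d, the methyltransferase of the MLL4 complex, differed by 0.14 (SE 0.34), and Ezh2, which places the mark that Kdm6a removes, by 0.19 (SE 0.18). Of 26 enzymes and subunits that act on lysine 4 or lysine 27 of histone H3, all tested, Kdm6a alone had an unadjusted limma p below 0.05, and the other 25 differed by at most 0.19 in size. Of the other tested genes that form X and Y pairs, Ddx3x (0.001), Ddx3y (-0.006), Kdm5c (0.009), Kdm5d (0.11), Eif2s3x (-0.02) and Eif2s3y (0.15) also lay near 0.

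Few transcripts separated the groups at the level of all genes. Among 13743 tested genes, 2 (0.0146%) passed an adjusted p of 0.05, Gh and Akr1c18, and both rose. At an unadjusted p below 0.05 there were 320 genes (2.33%), of which 193 were higher in cKO (1.4% of those tested) and the rest lower (0.924%). In 476 genes (3.46%) every cKO library was above every control, and in 332 (2.42%) every one was below, together 5.88%. The median log2 difference over all tested genes was -0.003, and 49.1% of genes were above 0. With the library-number series as a block, 7 genes (0.0509%) passed, all higher in cKO: Gh, Akr1c18, Akr1c19, Carns1, Cyp2g1, Gm1943 and Mcam. The authors' deposited table, which is held here for names up to Olfr577, called 14 of 11111 genes (0.126%), 11 up (0.099%) and 3 down (0.027%).

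**Figure D1:**
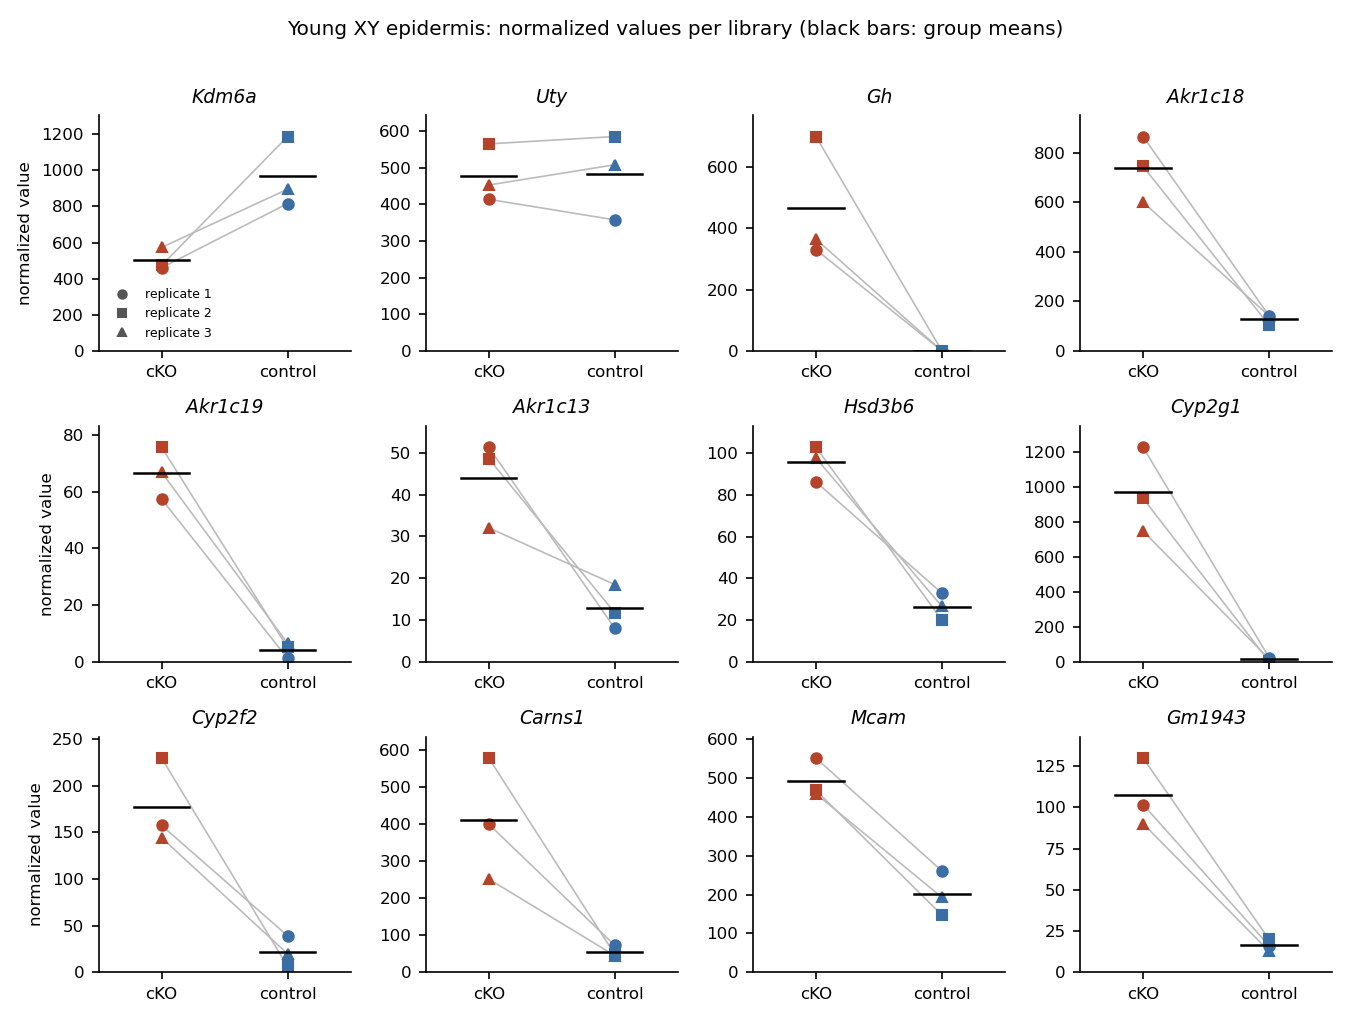
Normalized values of 12 genes in each young XY library, cKO on the left and control on the right, with black bars for group means and grey lines joining libraries of one number series. Kdm6a is lower and Gh, Akr1c18, Akr1c19, Akr1c13, Hsd3b6, Cyp2g1, Cyp2f2, Carns1, Mcam and Gm1943 are higher in all 3 cKO libraries, while the Uty values overlap between 358 and 586.

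Gh encodes growth hormone, made chiefly by the pituitary, which signals through its receptor, JAK2 and STAT5. It was listed at 331, 700 and 364 in cKO and at 0 in all 3 controls, so no fold is given (limma adjusted p = 3.05e-04). The groups were far apart, and the call held under every alternative run. Cre transgenes can carry parts of a growth hormone gene. The construct is not described in the sources used here, and whether the reads come from the gene on chromosome 11 or from the transgene was not tested. In the young XX table Gh was 342 to 405 in the 5 cKO libraries and 0 to 2.58 in the 4 controls. In the aged XY table it was 866, 0 and 843 in the libraries labelled cKO 4 to 6 and 0.948, 2443 and 559 in those labelled control 4 to 6. The order in that table did not follow the labels, and Kdm6a there was 584, 1322 and 673 in cKO and 1090, 1224 and 1511 in control. In the aged XX table the order followed the labels, with Gh at 820 and 541 in cKO and 0.955 and 0 in control. Kdm6a there was 1373 and 1299 in cKO and 3367 and 2852 in control.

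Of 28 genes of the growth hormone and IGF axis, Gh included, 22 were tested, 12 were above 0, and the median log2 difference was 0.05. In 3 of the 22 every cKO library was above every control (3.46% of all tested genes), and 7 were positive in all 3 number series (13.6%). Socs2, a STAT5-induced inhibitor of growth hormone signalling, was 110, 103 and 73.7 in cKO and 37.2, 33.8 and 23.2 in control, without overlap. Its log2 difference of 1.58 (SE 0.31) did not pass (adjusted p = 0.902, and 0.0977 with the block). The receptor Ghr was 1020 to 1250 in cKO and 1084 to 1327 in control, Stat5a 878 to 946 in cKO and 824 to 930 in control, and both overlapped. Cish, another STAT5-induced inhibitor, was 3473, 4256 and 2394 in cKO and 2802, 3054 and 1466 in control, higher in cKO in each number series (0.50, SE 0.31) but with overlapping groups. Igf1, the hormone that growth hormone induces in liver, was 4.42 to 14.97 in cKO and 5.22 to 33.2 in control and was too low to be tested.

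Akr1c18, which encodes the hydroxysteroid dehydrogenase that inactivates progesterone, rose. It was 866, 745 and 600 in cKO and 142, 104 and 141 in control, means of 737 ± 133 and 129 ± 21.4 (SD, n = 3 each). Each cKO value exceeded the highest control value. The log2 difference was 2.50 (SE 0.21, adjusted p = 0.0117). The call was lost without cKO 1 (adjusted p = 0.104), cKO 2 (0.101) or control 3 (0.0553), while the difference stayed between 2.36 and 2.64, and also without a trend in the prior variance (0.0581).

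Its neighbours Akr1c19 and Akr1c13 moved in the same direction without passing in the main fit. The authors' deposited table called Akr1c19 (adjusted p = 1.1e-07) and not Akr1c13 (0.397). Akr1c19, another aldo-keto reductase gene, was 57.3, 75.6 and 66.8 in cKO and 1.14, 5.03 and 6.49 in control, with no overlap (3.87, SE 0.54, adjusted p = 0.208, and 0.0374 with the block). Akr1c13 was 51.3, 48.6 and 32.0 in cKO and 8.01, 11.7 and 18.5 in control (1.76, SE 0.42, adjusted p = 0.9999); 28.6% of the 50-base words of its transcript occur in Akr1c12, so its reads may be split between the copies. Akr1c14 overlapped between groups (28.6, 59.9 and 33.2 in cKO, 23.6, 38.4 and 13.3 in control). Akr1c12 averaged 2.82 in cKO and 0.308 in control, and Akr1c6, Akr1c20 and Akr1c21 at most 0.392 in either group; these 4 lie further along the chromosome and were too low to be tested.

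The wider set of steroid-metabolizing genes was mixed. Of 32 listed genes 18 were tested, with 14 above 0 and a median of 0.21. Of these, 6 were higher at an unadjusted p below 0.05 (1.4% of all tested genes were), all 6 without overlap (3.46%), and 1 was lower (0.924%). The list holds the Akr1c genes, and the 6 include Akr1c18, Akr1c19 and Akr1c13 described above, so these counts are not separate from those results. Hsd3b6, a steroid dehydrogenase gene, was 86.2, 103 and 97.6 in cKO and 32.8, 19.95 and 26.5 in control (1.84, SE 0.29, adjusted p = 0.428). It was called in the authors' deposited table (adjusted p = 5.11e-04). Of its transcript's 50-base words 16.0% occur in other genes, Hsd3b2 and Hsd3b3 among them, so its reads may not be fully separate. Hsd17b11 was 295 to 313 in cKO and 203 to 226 in control (0.48, SE 0.16), and Hsd17b2, which inactivates estradiol and testosterone, was 26.6 to 35.1 in cKO and 9.94 to 17.7 in control (1.12, SE 0.38). The lower gene was Srd5a1, a steroid 5-alpha-reductase gene, at 765, 690 and 733 in cKO and 1267, 1040 and 937 in control (-0.56, SE 0.15). None of these 4 passed over all genes.

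Further enzyme genes were higher in every cKO library. Cyp2g1, a cytochrome P450 gene known from olfactory mucosa, was 1229, 936 and 748 in cKO and 23.4, 0.832 and 15.6 in control. Its log2 difference of 6.72 (SE 0.85) missed the threshold (adjusted p = 0.121) and passed with the block (0.00725), with a pseudocount of 5 (0.0150) and without control 2 (0.00140). Carns1, the carnosine synthase gene, was 400, 578 and 252.004 in cKO and 73.1, 48.9 and 45.5 in control, without overlap (2.81, SE 0.33, adjusted p = 0.0954, and 0.00725 with the block); 26.8% of its transcript's 50-base words occur in another annotated gene. Cyp2f2, a P450 gene known from airway club cells, was 157, 230 and 144 in cKO and 39.3, 6.61 and 19.97 in control (3.23, SE 0.56, adjusted p = 0.634). The 3 cKO libraries were above all controls for each of these genes. The authors' deposited table called Cyp2g1 (adjusted p = 1.06e-06), Carns1 (1.35e-12) and Cyp2f2 (4.84e-06).

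Mcam, the adhesion molecule CD146 of endothelium, smooth muscle and melanoma cells, was 550, 467.8 and 459 in cKO and 261, 147 and 193 in control (1.33, SE 0.23, adjusted p = 0.622, and 0.0374 with the block). Of the endothelial markers all 10 tested were below 0, with a median of -0.49, and Pecam1 was 21.9 to 62.9 in cKO and 25.4 to 81.6 in control. The number series gave medians of -0.54, 0.03 and -1.28, and 9 of the 10 were highest in control 1. None of the 10 had an unadjusted limma p below 0.05. The summed level of all 12 listed markers was 231 to 564 in cKO and 215 to 763 in control. The part of endothelial cells in the Mcam values was not tested. Cpt1c, a brain-type carnitine palmitoyltransferase gene, was 158 to 207 in cKO and 63.8 to 87.7 in control (1.24, SE 0.23, adjusted p = 0.808), and Grk3, a receptor kinase gene, was 321 to 550 in cKO and 194 to 237 in control (1.02, SE 0.23). The authors' deposited table called Mcam (adjusted p = 5.02e-04), Cpt1c (0.00676), Grk3 (0.0416) and Gm1943 (3.26e-08). The predicted gene Gm1943 was 102, 130 and 90.1 in cKO and 16.2, 20.01 and 12.9 in control (2.64, SE 0.31, adjusted p = 0.0954, and 0.0186 with the block), but all of its transcript's 50-base words also occur in Wdr70, so its value is uncertain.

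Further genes with large positive differences and no overlap were Serpina3j, a serine protease inhibitor gene, at 2.30 (SE 0.44), Ttyh1 at 1.95 (SE 0.43) and Mme, the neprilysin gene, at 1.34 (SE 0.31). Serpina3j was 417, 936 and 594 in cKO and 240, 84.1 and 94.3 in control. None of them passed the adjusted threshold.

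On the lower side no gene passed. Lhfpl1 was 61.8, 61.3 and 20.5 in cKO and 157, 126.6 and 128.2 in control (-1.65, SE 0.43). Has3, a hyaluronan synthase gene, was 84.6, 79.1 and 66.9 in cKO and 141, 159 and 518 in control; its difference was -1.55 (SE 0.46) and -0.96 without control 3. Edaradd, the adaptor of the ectodysplasin receptor, was 701, 604 and 533 in cKO and 918, 1008 and 1066 in control (-0.71, SE 0.15). The groups did not overlap for these genes, nor for Asb2 (-1.43), Sardh, the sarcosine dehydrogenase gene (-0.81), Sorcs2 (-0.76), Nptx1 (-0.74), Cotl1 (-0.73) and Nrip3 (-0.70). Among the names held here, up to Olfr577, the authors' deposited table called 2 genes down beside Kdm6a. These genes, Ldb3 and Casq1, encode skeletal muscle proteins. Ldb3 was 10.6, 12.8 and 6.92 in cKO and 42.8, 14.9 and 284 in control, and Casq1 was 5.65, 5.12 and 0.970 in cKO and 21.3, 9.94 and 173 in control. For Ldb3 the limma difference of -2.43 became -1.29 without control 3, the library with high muscle markers; the part of muscle tissue in these calls was not tested.

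Cornified envelope genes lay mostly below 0, and the Lce1 genes, which encode late cornified envelope proteins, made up 14 of the 29 tested. Of 40 listed, 29 were tested and 25 were below 0, with a median log2 difference of -0.56, against -0.003 over all genes. In 16 of them the difference was negative in all 3 number series, where 13.7% of all tested genes were. None passed the adjusted threshold. At an unadjusted p below 0.05 8 were lower (0.924% of all tested genes were) and 0 higher, and all 8 were Lce1 genes. Like the other lists, this one was chosen with earlier results of these data known, so these shares cannot test for enrichment. The Sprr genes, which encode small proline-rich envelope proteins, had a median of -0.37 over 5 tested, and 0.05 without control 3. The list's median stayed between -0.65 and -0.51 when any 1 library was left out.

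Within the Lce1 cluster all 14 members were tested and all 14 were below 0, from -1.31 to -0.19, and 11 were negative in all 3 series. Lce1e was 139, 297 and 152 in cKO and 360, 457 and 438 in control, without overlap (-1.17, SE 0.29, adjusted p = 0.9999). Lce1k was 91.9, 137.4 and 65.8 in cKO and 161, 289 and 184 in control (-1.11, SE 0.33), and Lce1a1 was 3806, 5020 and 2655 in cKO and 6804, 6151 and 5434 in control (-0.72, SE 0.23). These 3 alone of the 14 had no overlap between groups, against 2.42% of all tested genes. Lce1m, the member nearest 0, was 41190, 37742 and 22338 in cKO and 58704, 32077 and 27596 in control (-0.19, SE 0.34). The Lce1 transcripts resemble one another, and 22.7% of the 50-base words of Lce1e and 9.12% of those of Lce1k occur in other Lce1 genes, so their reads are not fully separate. Loricrin (Lor) was 93703 to 107970 in cKO and 83193 to 159375 in control (-0.22, SE 0.27), and involucrin (Ivl) differed by 0.12 (SE 0.48).

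**Figure D2:**
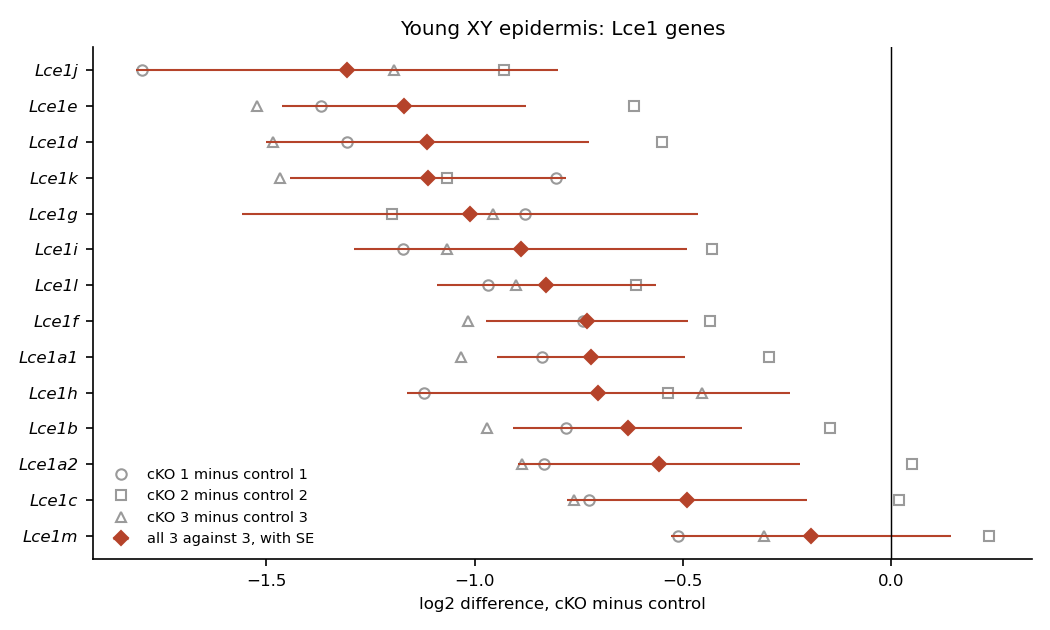
Log2 difference, cKO minus control, for the 14 Lce1 genes in young XY epidermis. Red diamonds with SE bars compare all 3 cKO with all 3 control libraries and grey symbols compare libraries of one number series; all diamonds lie between -1.31 and -0.19.

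Of 30 suprabasal differentiation genes, all tested, 23 were below 0 with a median of -0.07. The difference was negative in all 3 series in 10 of them (13.7% of all tested genes), and 0 had an unadjusted p below 0.05. The suprabasal keratin Krt1 was 67509, 76901 and 96161 in cKO and 67506, 67484 and 120905 in control (-0.05, SE 0.28), highest in control 3; without that library the difference was 0.23. Of 24 basal layer genes, all tested, 17 were above 0 with a median of 0.08. Krt14 was 101196 to 136136 in cKO and 108842 to 126419 in control (0.06, SE 0.22). The stress keratins and calgranulins had a median of -0.34 over 20 tested genes, which became 0.03 without control 3, where 12 of the 20 were highest.

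Hair follicle stem cell genes leaned the other way. Of 27 listed genes, 26 were tested and 23 were above 0, with a median of 0.20, and 13 were positive in all 3 number series, where 13.6% of all tested genes were. At an unadjusted p below 0.05 5 were higher (1.4% of all tested genes were) and 0 lower, and none passed the adjusted threshold. This list too was chosen with earlier results of these data known, so the shares cannot test for enrichment. Lhx2, a transcription factor gene of bulge stem cells, was 2137, 1951 and 2548 in cKO and 1655, 1516 and 1812 in control, without overlap (0.41, SE 0.14). Lgr6, a stem cell receptor gene of the upper follicle, was 576, 916 and 786 in cKO and 365, 646 and 426 in control (0.68, SE 0.25), with overlap, and Cd34 differed by 0.49 (SE 0.23). Krt15, the bulge keratin, was 155080, 181198 and 134764 in cKO and 184337, 138204 and 103346 in control (0.17, SE 0.28), and Sox9 differed by 0.11 (SE 0.15). Of the 26 tested genes, 13 were highest in cKO 3, and the number series of replicate 1, 2 and 3 gave medians of 0.21, 0.13 and 0.41. Leaving out 1 library kept the list's median between 0.14 and 0.36.

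The interferon response list was above 0 in 25 of 27 tested genes, with a median of 0.69, and 1 library carried it. In 26 of the 27 the highest value was that of cKO 1. Isg15, an antiviral ubiquitin-like modifier, was 854, 85.5 and 114.9 in cKO and 145, 89.9 and 111.4 in control, and Ifit1 was 206, 15.7 and 35.3 in cKO and 11.02, 25.4 and 15.9 in control. The median was 1.85, -0.22 and 0.17 within the number series of replicate 1, 2 and 3, and 0.04 over all libraries but cKO 1. No member passed the adjusted threshold, and 2 were higher at an unadjusted p below 0.05 (1.4% of all tested genes were).

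The remaining lists had medians between -0.26 and 0.15, apart from endothelium and skeletal muscle (-2.38), whose number series gave -1.34, 0.38 and -5.96. Among them, Aldh3b2 of the barrier lipid list, an aldehyde dehydrogenase gene, was 2188, 2176 and 2486 in cKO and 4042, 3203 and 3305 in control, without overlap (-0.62, SE 0.14, adjusted p = 0.9999). Crabp2, which carries retinoic acid, was 1574, 1382 and 1546 in cKO and 2224, 1614 and 2101 in control, also without overlap (-0.39, SE 0.15). Langerhans and myeloid markers were below 0 in 15 of 17 genes with a median of -0.18, while their summed level was 17268 to 28691 in cKO and 19765 to 29482 in control.

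**Figure D3:**
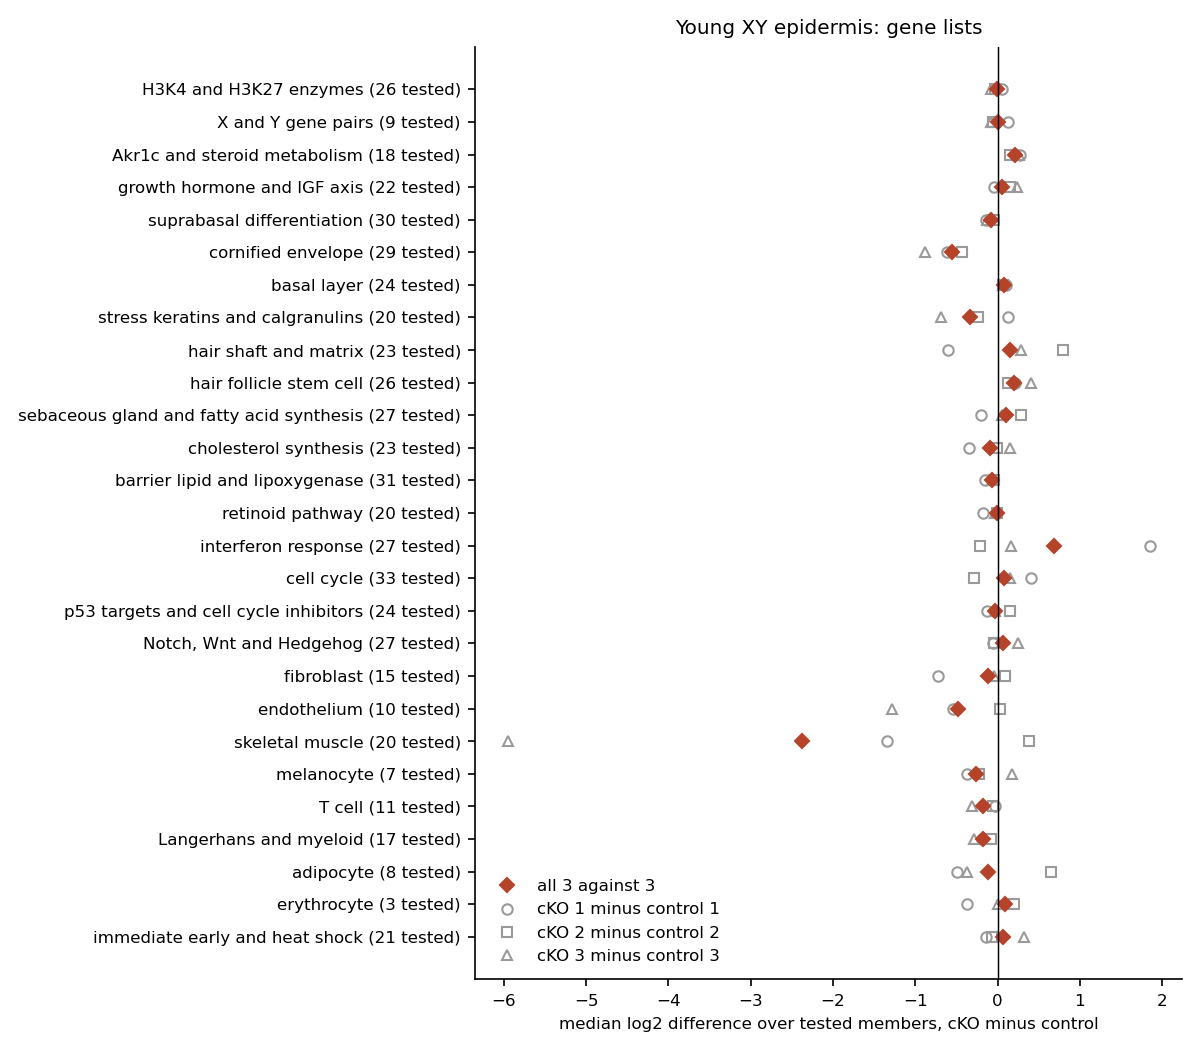
Median log2 difference, cKO minus control, over the tested members of each gene list in young XY epidermis: red diamonds for all 6 libraries, grey symbols for each number series. The cornified envelope lies at -0.56 with all 3 series below 0, the interferon list at 0.69 with one series at 1.85, and skeletal muscle at -2.38 with one series at -5.96.

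The deletion in young XX epidermis gave a point of comparison, with 5 cKO libraries (Cre+; Utx fl/fl) and 4 control libraries (Cre-; Utx fl/fl) in a separately scaled table; there 3.94% of genes passed limma's adjusted threshold. No gene's change was shown to differ between XY and XX. Of 13535 genes tested in both, 0 had a difference of changes past an adjusted p of 0.05 when the difference was set against a t distribution with Satterthwaite degrees of freedom (smallest adjusted p = 0.0914, 415 genes at an unadjusted p below 0.05) or in 1 limma fit with an interaction term (0.118, 446 genes). A z test, which treats the standard errors as known and so gives p-values that are too small, called 45 (0.332%). In 40 of them (0.296%) the XY change was the more positive one and in 5 (0.0369%) the more negative one; with the block the z test called 384, 263 more positive and 121 more negative. In 42 of the 45 the change was larger in XX, and 36 were called down in XX. In 3 it was larger in XY: Cyp2g1, Carns1 and Akr1c18. Akr1c18 differed by 2.50 in XY and 0.90 in XX, a difference of 1.60 (adjusted p = 0.132 by t and 1.93e-04 by z). Carns1 differed by 2.81 in XY and 0.22 in XX (0.0944 by t), and Cyp2g1 by 6.72 in XY and 1.44 in XX (0.140 by t). Serpina3b, a protease inhibitor gene named after its values were seen, was 1.104 (SE 0.27) in XY and -2.28 (SE 0.61) in XX. Neither change passed limma's adjusted threshold (adjusted p = 0.9999 in XY and 0.0706 in XX), nor did their difference by t (0.140).

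Among the genes past the z test, values were as follows for 3 with the larger change in XX. Gpha2, a glycoprotein hormone subunit gene, was 146, 156 and 163 in cKO and 460, 306 and 150 in control in XY (-0.83, SE 0.37; -0.46 without control 1 and -1.27 without control 3), against -3.95 (SE 0.34) in XX. Sox15, a transcription factor gene, was 48.3, 94.2 and 64.9 in XY cKO and 123, 148 and 98.6 in XY control (-0.86, SE 0.31), against -3.25 (SE 0.43) in XX. Tgm7, a transglutaminase gene, was 231, 289 and 134 in XY cKO and 598, 475 and 277 in XY control (-1.04, SE 0.36), against -3.21 (SE 0.26) in XX. Mcam (-0.09, interval -0.70 to 0.52) and Kdm6a (-0.43, interval -0.88 to 0.02) had no called difference between XY and XX by any of the tests (95% intervals from the t distribution).

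**Figure D4:**
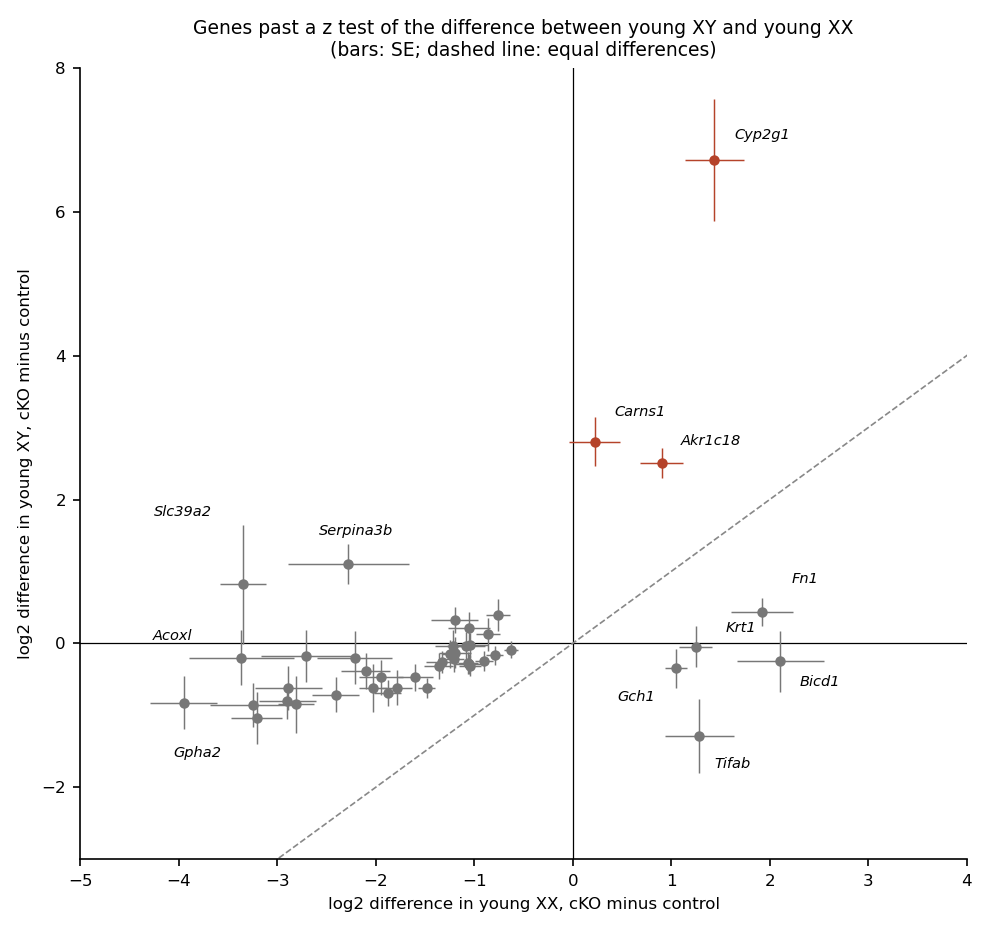
Log2 difference, cKO minus control, in young XY (vertical) against young XX (horizontal) for the 45 genes past the z test of the difference, none of which passed the other tests, with SE bars and a dashed line of equal differences. Red marks the 3 genes with the larger change in XY, Cyp2g1, Carns1 and Akr1c18; most of the others lie left of the vertical axis, close to 0 on the vertical scale.

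Cyp2g1, Carns1 and Akr1c18 were also compared by level. Akr1c18 was 600 to 866 in XY cKO and 104 to 142 in XY control, and 1716 to 2723 in XX cKO and 887 to 1870 in XX control. Carns1 was 252.004 to 578 in XY cKO and 45.5 to 73.1 in XY control, and 836 to 2251 in XX cKO and 810 to 1358 in XX control. Cyp2g1 was 748 to 1229 in XY cKO and 0.832 to 23.4 in XY control, and 3629 to 8977 in XX cKO and 1452 to 3444 in XX control. In these 4 groups the XY control libraries were the lowest for each gene, and the XY cKO libraries lay between them and the XX libraries.

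Of the 11 genes called higher in XY by limma, by the fit with the block or in the authors' deposited table, 7 had all 4 XX controls above all 3 XY controls, as did 4.22% of all tested genes, with 3.55% the other way: the 3 above and Akr1c19, Hsd3b6, Cyp2f2 and Cpt1c. These genes were called against the same XY controls, and the XY and XX tables were scaled separately, with a median log2 ratio of XX to XY control means of 0.02 over the tested genes. Socs2 behaved likewise, at 73.7 to 110 in XY cKO and 23.2 to 37.2 in XY control, and 107 to 275 in XX cKO and 94.7 to 193 in XX control. Gh, Gm1943, Mcam and Grk3 did not; Mcam was 459 to 550 in XY cKO and 147 to 261 in XY control, and 503 to 816 in XX cKO and 200 to 320 in XX control.

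**Figure D5:**
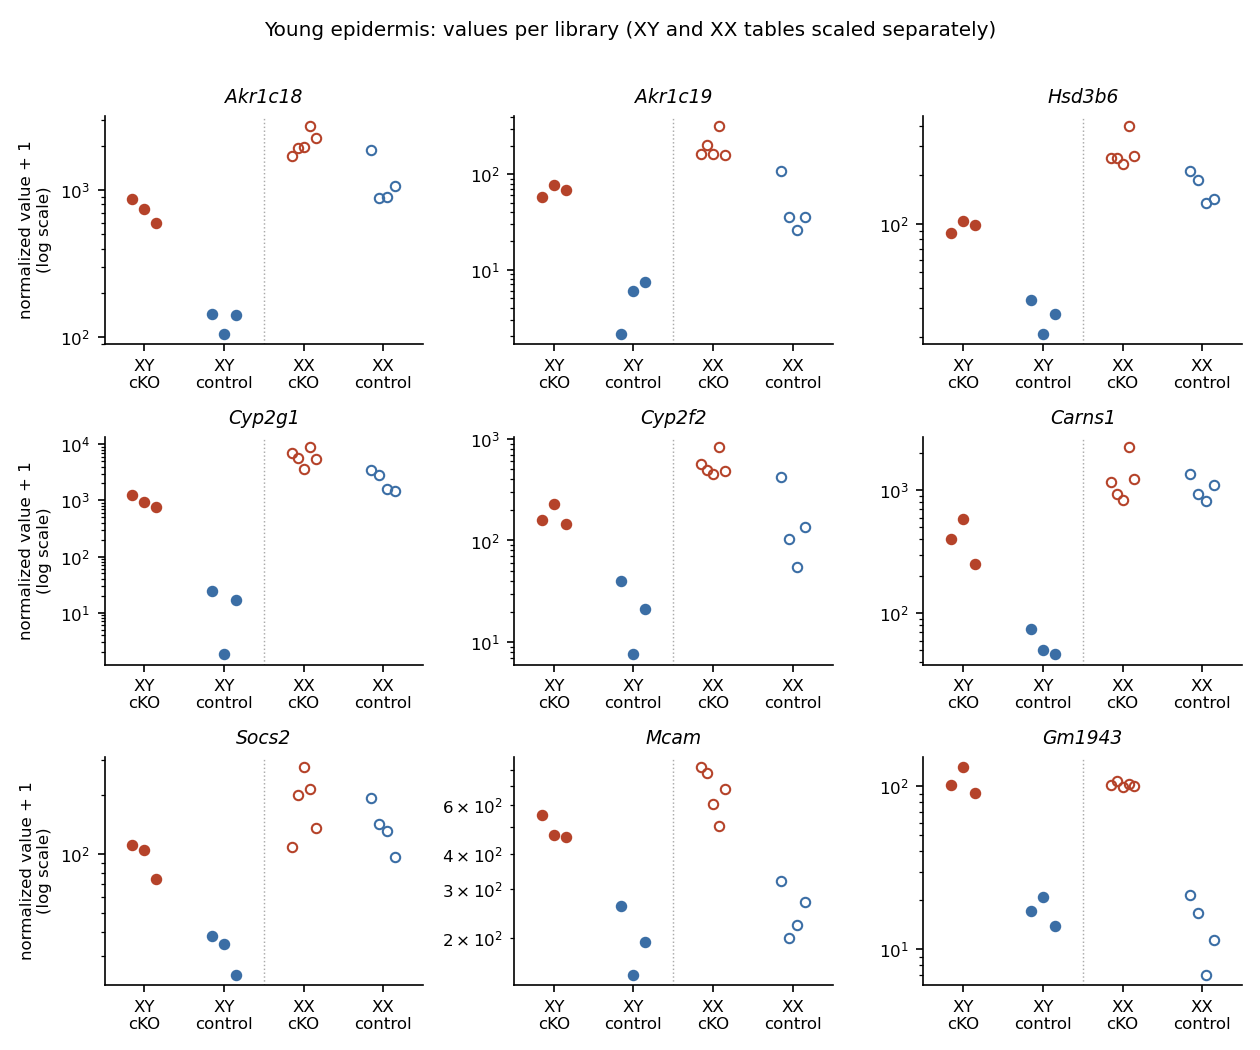
Normalized value + 1 on a log scale for 9 genes in each young library, XY cKO, XY control, XX cKO and XX control from left to right; the tables were scaled separately. For Akr1c18, Akr1c19, Hsd3b6, Cyp2g1, Cyp2f2, Carns1 and Socs2 the XY control libraries are the lowest group, while for Mcam and Gm1943 the XX control libraries overlap the XY control libraries.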

How the data were processed

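Epidermal RNA was extracted with RNeasy, selected for poly(A) and made into directional libraries, per the labels' protocols. The submitters' processing notes name STAR, DESeq2, GRCm38 and mm10 without roles or versions; the counter, its annotation and filters are not given in the sources used here. The authors deposited 1 table of normalized values (a signal per gene and library, not whole counts) for each age and sex, and comparison tables with a log2 fold change, a test score and p-values. Of 24972 rows, 26 names turned into dates were left out, and 24464 of 24946 genes (98.1%) matched a GENCODE symbol.

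Of the low values of a young XY library, 54.3% to 74.1% lay within 0.1 of a whole multiple of its smallest step, up to 20 steps, so whole reads were not recovered and edgeR was not used. Values were tested as log2(value + 1) with limma 3.58.1 in R 4.3.3 (moderated with a variance trend), on genes at 10 or more in at least 3 libraries (4 in young XX), with Benjamini-Hochberg adjustment over all genes and a threshold of 0.05. Because values are not per length, levels are compared within genes only. The fit was tested first on simulated data. Tables and figures were made with Python 3.11.

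cKO and control libraries numbered in the same series (112 and 113, 462 and 458, 224 and 223) deviated together from their group means (r = 0.518, 0.399 and 0.420, against -0.349 to -0.0315 for the other combinations), so the series was used as a block in an alternative fit; the labels do not say what the numbers stand for. The p-values measure the spread between these libraries, which may be partly technical. Genes named are Kdm6a, Uty and Kdm6b, those called by limma, with the block or in the authors' table, the 12 largest changes in each direction (unadjusted p under 0.01, no overlap, mean of at least 50), up to 4 members with the smallest p and the most abundant one of each of 27 lists, and up to 5 genes per direction past a z test against young XX, the difference of the changes divided by its standard error. That difference was also set against a t distribution and fitted jointly with an interaction term. The members and lists were chosen with earlier results of these data known. Alternatives changed the pseudocount, filter, normalization, library weights, variance trend, block and each library in turn.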

Additional observations from a re-analysis of the deposited data

Results flagged for a closer look

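By a z test that gives p-values that are too small, the change in young XY differed from that in young XX (XY minus XX, log2) for 18 named genes; 0 of them passed with a t distribution or in a joint fit with an interaction term. It was positive for Akr1c18 (1.60), Carns1 (2.58) and Cyp2g1 (5.28), where the XY change was the larger one. It was also positive for Slc39a2 (4.17), Acoxl (3.17), Gpha2 (3.13), Sox15 (2.39), Xpnpep2 (2.27), Tgm7 (2.17), Sardh (2.09), Cbr2 (1.96), Nkd2 (1.17) and Aldh3b2 (0.87), and negative for Tifab (-2.57), Bicd1 (-2.35), Fn1 (-1.49), Gch1 (-1.40) and Krt1 (-1.29); in these 15 the XX change was the larger one in size, for Tifab barely so (-1.28 in XY and 1.29 in XX). Carns1 stood apart in 1 of the 5 young XX cKO libraries, at 2251, with the other 4 between 836 and 1224; chance sets such a library apart in about 1 group in 20.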

How the results depend on the processing

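With 3 libraries per group, 2 genes passed in young XY in the main fit. The count was also 2 with a pseudocount of 0.5, with no filter or a stricter one, with quantile normalization and with library weights. It was 3 with a pseudocount of 5, where Cyp2g1 was added. The count was 1 without a variance trend, where the Akr1c18 call was lost, and 7 with the replicate block (library-number series), and leaving out 1 library gave 1 to 3; without cKO 1, cKO 2 or control 3 it was 1, Gh. At an unadjusted p below 0.05, 320 genes passed, and 1033 with the block. The 45 genes past the z test of XY against XX became 0 with a t distribution and 0 in a joint fit with an interaction term, both added after the data were seen, 86 with library weights, 73 without a variance trend and 384 with the replicate block, and 21 to 133 when 1 XY library was left out, with 21 without cKO 2 and 133 without control 1. The cause was not tested. With 1 library left out, several differences near 0 turned their sign. Uty ranged over -0.20 to 0.15 (positive without cKO 1, cKO 3, control 2 or control 3). Kdm6b ranged over -0.18 to 0.40 (negative without cKO 2) and Krt1 over -0.19 to 0.23 (positive without cKO 1 or control 3). Among others, Kmt2d was -0.25, Kdm5d -0.22 and Eif2s3y -0.06 without control 1, where all 6 libraries gave positive differences. Medians of gene lists with 1 library left out were added after the data were seen. Genes near 0, such as Akr1c12, were too low to be tested.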
